A study of Rattus norvegicus with 6 samples.

Results

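The matrix metalloproteases and the tissue inhibitors of metalloproteases (TIMPs) were followed in rat spinal cord as 9 genes of the 4736 that the array names singly: Mmp2, Mmp7, Mmp9, Mmp10, Mmp13, Mmp14, Timp1, Timp2 and Timp3. A probe set, a group of short oligonucleotides read together as 1 value, was taken as a member when the annotation of the array gave exactly 1 of these symbols for it. This gave 11 of the 8740 probe sets that are not controls, with 2 each for Mmp2 and Timp1 and 1 for every other gene. The arrays held total RNA from the cord at about thoracic segment 8. By their titles, 3 arrays hold the point of impact of a contusion, a blunt blow to the cord, at day 35 after the injury, and 3 hold the same level of uninjured cord. Strain, sex and age of the rats are not given in the sources used here, and neither is a sham operation, so surgery and elapsed time cannot be told apart from the contusion. Nothing in the labels ties an array to an animal of its own, so the spread behind each p-value may be technical.

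Matrix metalloproteases are zinc enzymes that cut collagens, laminins, fibronectin and proteoglycans, and also release or inactivate cytokines, growth factors and receptors. Most are secreted as inactive precursors whose prodomain must be removed, by plasmin, by other proteases or by a membrane-bound relative. TIMPs are small secreted proteins that bind the active site and block it. At the cell surface Timp2 has a further role: it bridges the membrane-bound protease encoded by Mmp14 and the precursor of Mmp2, which a neighbouring Mmp14 molecule then activates. In the injured cord these enzymes are known from the breakdown of the blood-spinal cord barrier, the entry of leukocytes and the remodelling of the scar.

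At day 35, 3 of the 9 genes were higher in contused than in uninjured cord, where 7% of all genes tested were. They were the membrane-type protease Mmp14 and the inhibitors Timp1 and Timp2. The rise was 2.11-fold for Mmp14, 2.08-fold and 5.07-fold for the 2 probe sets of Timp1, and 1.98-fold for Timp2. Mmp10, which encodes stromelysin-2, was lower by 1.49-fold, a call that most alternative settings did not keep. For Mmp2, Mmp7, Mmp9, Mmp13 and Timp3 the groups overlapped and no change passed the threshold.

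Promoter sequences are shown here for the inhibitors, of which Timp1 and Timp2 rose, and for Mmp10, because the members differ in the elements they carry. Mmp10 was called lower in the main fit but not in most alternatives. The table of RefSeq promoters of build GRCr8 matched 6 of the 9 members, all but Mmp2, Mmp9 and Mmp14. Each window is the 250 bases before the annotated start of the gene, 5′ to 3′ on the strand of the gene. Letters are in capitals where a script found 1 of 4 motifs: the AP-1 site TGAGTCA or its complement TGACTCA; the variant TGAGTAA or TTACTCA, which was added to the search after the Timp1 window had been read; the GC box GGGCGG or CCGCCC; and the TATA box TATAAA on the strand of the gene. No 2 matches overlap in these windows.
Timp1: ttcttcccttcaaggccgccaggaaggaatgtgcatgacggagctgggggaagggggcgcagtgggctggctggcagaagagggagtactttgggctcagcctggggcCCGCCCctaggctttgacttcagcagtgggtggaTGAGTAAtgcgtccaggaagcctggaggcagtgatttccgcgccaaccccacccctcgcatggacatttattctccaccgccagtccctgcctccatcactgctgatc
Timp2: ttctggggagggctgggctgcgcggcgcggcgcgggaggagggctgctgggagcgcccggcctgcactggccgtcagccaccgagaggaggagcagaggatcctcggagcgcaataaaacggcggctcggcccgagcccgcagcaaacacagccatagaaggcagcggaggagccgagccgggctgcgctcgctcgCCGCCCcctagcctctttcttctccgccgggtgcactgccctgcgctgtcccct
Timp3: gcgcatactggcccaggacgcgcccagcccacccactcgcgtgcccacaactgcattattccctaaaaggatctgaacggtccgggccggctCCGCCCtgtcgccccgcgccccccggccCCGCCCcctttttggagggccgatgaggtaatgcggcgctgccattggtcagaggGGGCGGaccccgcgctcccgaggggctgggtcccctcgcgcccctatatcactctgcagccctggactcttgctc
Mmp10: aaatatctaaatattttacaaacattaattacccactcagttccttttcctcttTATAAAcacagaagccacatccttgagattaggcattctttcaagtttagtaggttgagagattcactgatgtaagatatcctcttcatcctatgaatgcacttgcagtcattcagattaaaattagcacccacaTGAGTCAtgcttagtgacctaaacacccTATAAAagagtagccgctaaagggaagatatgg
These lie on GRCr8 at chrX:3771123-3771372 (minus strand), chr10:104089215-104089464 (minus strand), chr7:19459559-19459808 (minus strand) and chr8:12974457-12974706 (plus strand). The Timp1 window holds TGAGTAA with its first base at -108 from the start and a GC box at -142. The window of Timp2 holds a GC box at -54, and that of Timp3 holds 3, at -158, -130 and -75. In the Mmp10 window TGAGTCA begins at -61 and TATA boxes at -33 and -196.

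The same elements divided the 3 inhibitor windows from the 3 protease windows, which all come from one gene cluster on chromosome 8, so nothing follows for the other proteases. An AP-1 site was found in 3 of 3 protease windows (Mmp7 at -80, Mmp10 at -61, Mmp13 at -66) and in 0 of 3 inhibitor windows, against 4.05% of all 33469 windows of this length. TATAAA was likewise present in 3 of 3 protease and 0 of 3 inhibitor windows (8.06% of all), and the GC box in 0 of 3 and 3 of 3 (30.5% of all). TGAGTAA or its complement was in 2.38% of all windows and, among members, in that of Timp1. Base composition differed along the same line. GC made up 61.2%, 72% and 69.6% of the Timp1, Timp2 and Timp3 windows and 38.8%, 36% and 44.4% of the Mmp7, Mmp10 and Mmp13 windows, with a median of 51.2% over all windows. Of the 3 genes with an AP-1 and a TATA match, Mmp10 was called lower in the main fit and Mmp7 and Mmp13 did not pass the threshold. These matches are descriptions of letters, and no binding was measured.

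**Figure D1:**
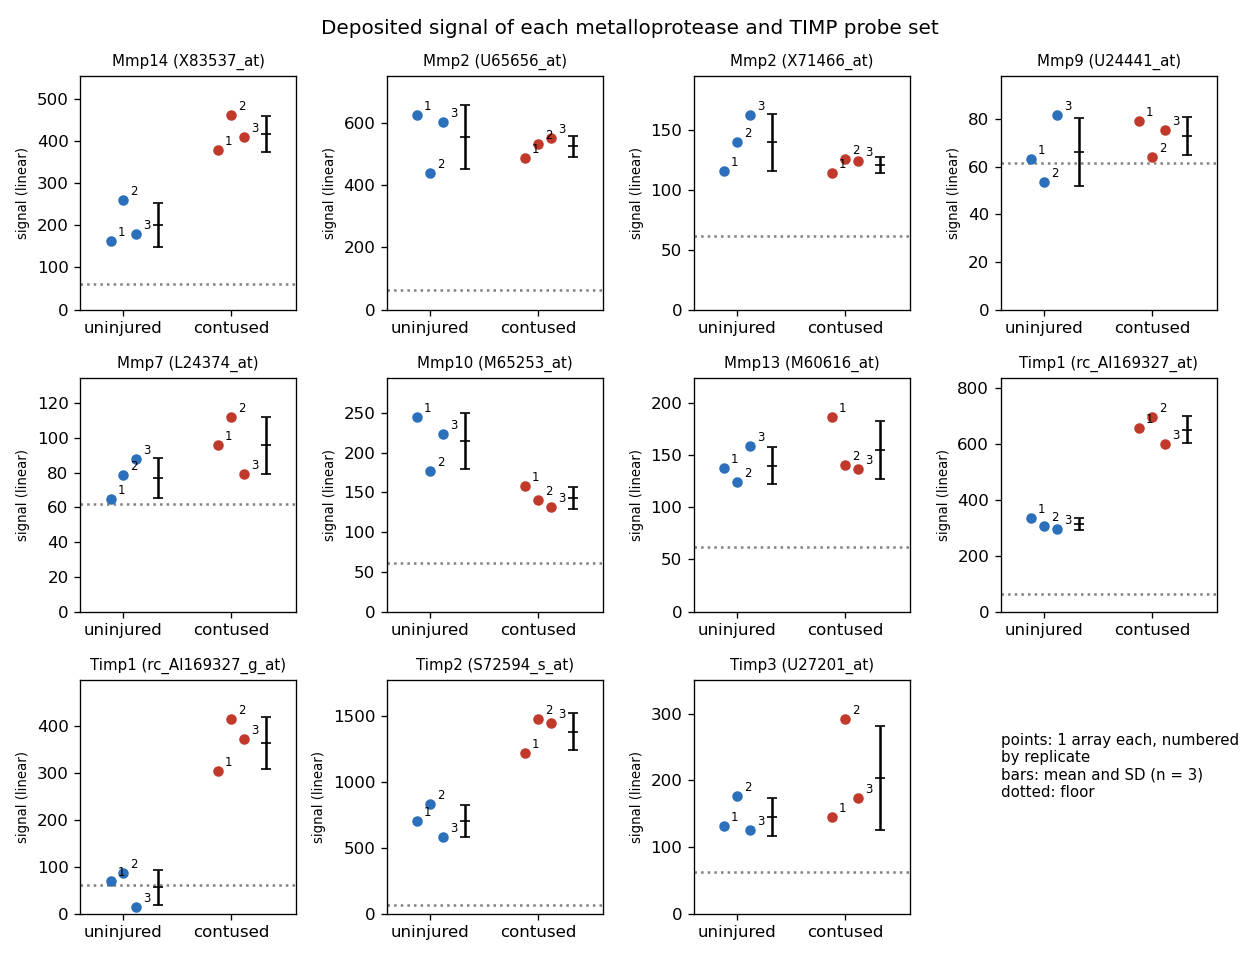
Deposited signal (linear scale) of the 11 probe sets in each array, uninjured in blue and contused in red, numbered by replicate, with the mean and SD of 3 arrays beside them and the floor of 61.6 as a dotted line. The groups are apart for Mmp14, both Timp1 probe sets, Timp2 and Mmp10, and overlap in the other 6 probe sets.

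Signals are the deposited intensities on a linear scale. Values under 61.6, the 25th percentile of all values, were raised to that floor before log2 values were taken. Log2 changes thus understate a difference wherever arrays lie at the floor. Raising values also removes the spread among such arrays, so an SE, interval or p-value there does not measure it. Changes were tested with limma over 6705 probe sets and adjusted by the Benjamini-Hochberg method. The threshold was an adjusted p of 0.05. All 11 member probe sets could be tested. Of them 4 were higher after contusion, where 7.79% of all probe sets tested were, and 1 was lower, where 9.59% of all were. The groups did not overlap in 5 of the 11, against 34.8% of all probe sets tested. The median log2 change was 0.31 over the member probe sets and -0.005 over all. By gene, with the brightest tested probe set standing for each, 3 of 9 were higher and 1 lower. Over all 3955 genes tested these shares were 7% and 9.91%. These RNA levels are from whole tissue, in which more cells of a type and more RNA per cell cannot be told apart.

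Among the proteases, Mmp14 stood out. Its signals were 163, 260 and 179 in the uninjured arrays 1 to 3 and 378, 462 and 410 in the contused arrays. Every contused array lay above every uninjured array, and the nearest values, 260 and 378, belonged to uninjured array 2 and contused array 1. The means were 201 ± 52 and 417 ± 42.3 (SD, n = 3), a log2 change of 1.08 (SE 0.19, limma adjusted p = 0.00303), or 2.11-fold with a 95% interval of 1.58 to 2.81. This change was larger than 98.3% of those of all probe sets tested. The uninjured arrays were the more scattered, with a coefficient of variation of 25.9% against 10.2% in the contused arrays.

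Mmp2 encodes gelatinase A, the protease whose precursor Mmp14 activates. Its brighter probe set (U65656_at) gave 627, 439 and 603 in uninjured and 489, 533 and 554 in contused cord. The contused arrays all fell within the range of the uninjured ones. The log2 change was -0.07 (SE 0.16, limma adjusted p = 0.825). Its 95% interval runs from 0.749-fold to 1.22-fold, so a rise of the size seen for Mmp14 lies outside it. The dimmer probe set (X71466_at), with 116, 140 and 163 against 114, 126 and 124, had a log2 change of -0.19 (limma adjusted p = 0.474) and an interval from 0.687-fold to 1.12-fold. In the main fit the intervals of both probe sets thus ended at or below 1.22-fold. The sign of the small change of the brighter one turned with quantile normalization (log2 change 0.03).

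Mmp9 encodes gelatinase B, which neutrophils store and which is known from the early phase of cord injury. Its signals lay close to the floor, at 63.3, 53.5 and 81.9 in uninjured and 79.5, 64.1 and 75.5 in contused cord, and uninjured array 2 was below it. The groups overlapped, with a log2 change of 0.09 (SE 0.14, limma adjusted p = 0.722). The 95% interval on values held at the floor ran from 0.856-fold to 1.32-fold. Because the floor compresses changes, it sets no bound on a rise of Mmp9 RNA. With the floor at the 10th percentile the log2 change was 0.16. Of the neutrophil markers 6 were on the array and 3 could be tested, with 0 past the threshold in limma and 0 at an unadjusted p of 0.05. Their summed signal ran from 370 to 483 in uninjured and from 409 to 472 in contused arrays.

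The secreted proteases Mmp7 (matrilysin), Mmp10 (stromelysin-2) and Mmp13 (collagenase-3) lie in one gene cluster on chromosome 8 of build GRCr8. Mmp10 gave 245, 177 and 224 in uninjured and 158, 141 and 131 in contused cord. The groups did not overlap, although uninjured array 2 and contused array 1 were close. The means were 215 ± 35 and 143 ± 14, a log2 change of -0.58 (SE 0.17, limma adjusted p = 0.0353), or 1.49-fold lower in contused cord. The direction held in every alternative run, with log2 changes from -0.72 to -0.48, but the call held in 6 of 13. It went above 0.05 when contused array 1, 2 or 3 was left out (adjusted p = 0.0572, 0.113 and 0.093), likewise for uninjured array 1 or 3 (0.127 and 0.135), without the filter on dim probe sets (0.108) and with arrays scaled to 1 trimmed mean (0.0607).

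Mmp7 gave 64.6, 78.3 and 87.9 in uninjured and 96.1, 112 and 78.9 in contused cord. Contused arrays 1 and 2 were above all uninjured arrays, and contused array 3 was not. The log2 change of 0.31 (SE 0.16) did not pass (limma adjusted p = 0.237), and its interval ran from 0.965-fold to 1.6-fold. Mmp13 gave 138, 124 and 159 against 187, 141 and 137, so that contused array 1 was alone above the uninjured range. Its log2 change was 0.13 (limma adjusted p = 0.655), and -0.01 without contused array 1.

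**Figure D2:**
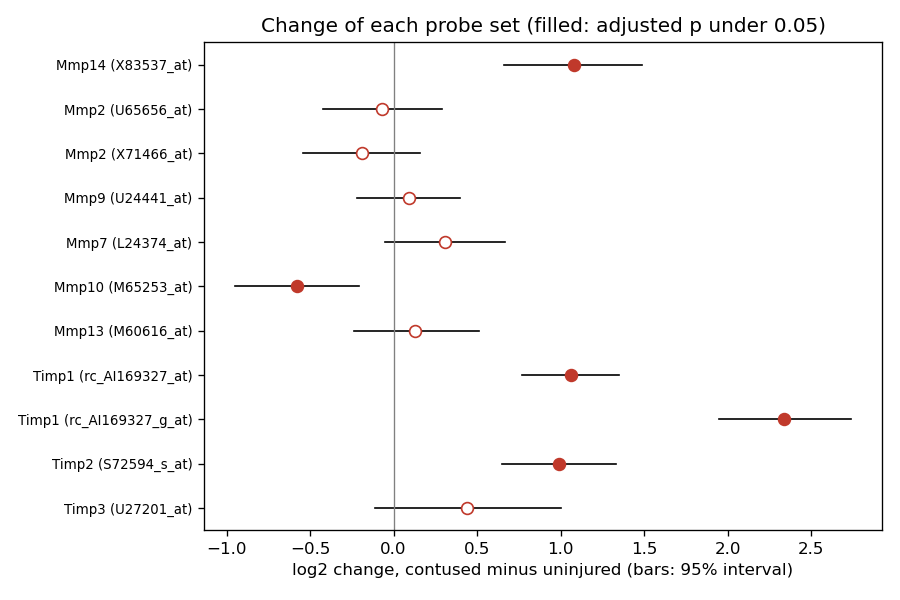
Log2 change, contused minus uninjured, of each member probe set with its 95% interval from limma; filled points passed an adjusted p of 0.05. Mmp14, Timp1 and Timp2 lie near 1, the second Timp1 probe set at 2.34 and Mmp10 at -0.58, while the intervals of the other 6 cross 0.

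Of the inhibitors, Timp1 is the one known to be induced by inflammatory cytokines and growth factors, in astrocytes among other cells. Its brighter probe set (rc_AI169327_at) gave 335, 307 and 294 in uninjured and 656, 696 and 599 in contused cord. The groups were far apart against their spread, with coefficients of variation of 6.75% and 7.49%. The log2 change was 1.06 (SE 0.13, limma adjusted p = 0.000432). The second probe set (rc_AI169327_g_at) gave 68.5, 85.7 and 14 against 305, 415 and 373. Here uninjured array 3 lay below the floor and the other two just above it. Its log2 change was 2.34 (SE 0.18, limma adjusted p = 2.66e-05), or 5.07-fold with an interval of 3.86 to 6.66. The coefficient of variation of the uninjured signals was 66.8%. Raising the value of 14 to the floor removed much of that spread, so the SE, interval and p-value do not measure it. Both probe sets derive from the same sequence tag, so they are not independent. They agreed in direction, and their estimates differed in size. The interval of the brighter one, 1.7-fold to 2.55-fold, does not reach that of the other, but the latter is narrowed by the floor. With the floor at the 50th percentile the second probe set had a log2 change of 1.53.

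Timp2, which is made constitutively in many tissues, gave 702, 829 and 578 in uninjured and 1221, 1479 and 1449 in contused cord. No uninjured array came near the lowest contused one. The means were 703 ± 125 and 1383 ± 141, a log2 change of 0.99 (SE 0.15, limma adjusted p = 0.00163), or 1.98-fold with an interval of 1.56 to 2.51. Timp3, the inhibitor that binds to the extracellular matrix and also blocks the shedding protease encoded by Adam17, gave 131, 177 and 125 against 145, 292 and 173. Contused array 2 was alone above the uninjured range. The log2 change was 0.44 (SE 0.25, limma adjusted p = 0.269), with an interval from 0.926-fold to 2-fold, and 0.15 without contused array 2. The coefficient of variation was 38.5% in the contused arrays, so the interval is wide and a rise of up to 2-fold lies within it.

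**Figure D3:**
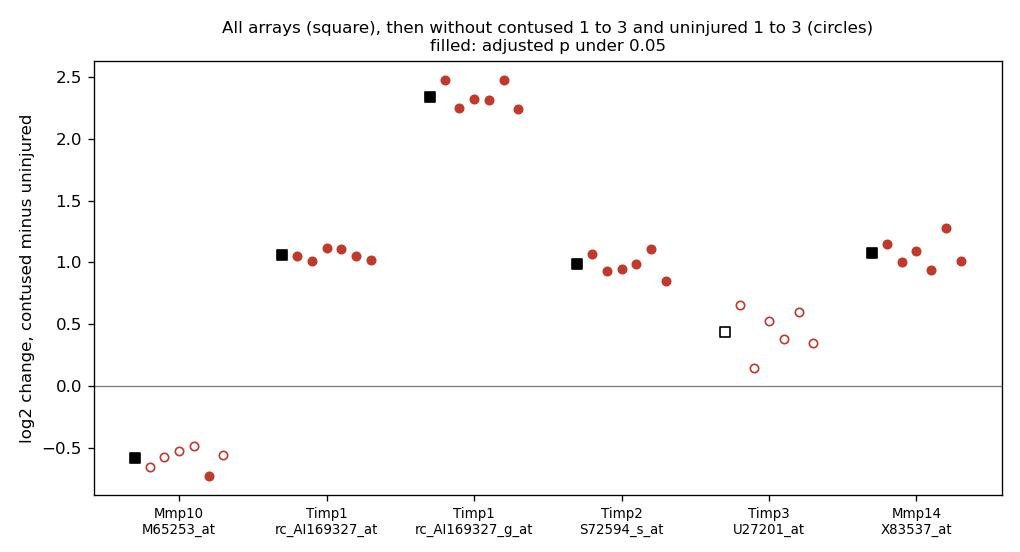
Log2 change, contused minus uninjured, with all arrays (square) and with each array left out in turn (circles, from contused 1 to uninjured 3); filled symbols passed an adjusted p of 0.05. Timp1, Timp2 and Mmp14 kept their calls in all 6 cases, Mmp10 did without uninjured array 2, and Timp3 passed in none and came nearest to 0 (0.15) without contused array 2.

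Whether members changed unequally was asked by taking the difference of 2 log2 signals within each array and comparing it between groups. The level of such a difference compares different probes and has no meaning of its own; its shift between groups does. For Timp1 and Timp2 the difference was -1.09 ± 0.19 in contused and -1.16 ± 0.24 in uninjured cord, a shift of 0.07 (SE 0.18; two-sided exact permutation p = 0.7, n = 3 and 3). Its sign turned without contused array 1 (-0.02) or uninjured array 2 (-0.07), so the inhibitors were not told apart by these probe sets. The other Timp1 probe set was not part of this comparison. It changed by 2.34 (95% interval 1.95 to 2.74, narrowed by the floor) against 0.99 (0.65 to 1.33) for Timp2. Whether Timp1 rose more than Timp2 was thus not settled by these probe sets. Timp1 exceeded Timp3 in its change by 0.61 (SE 0.32) and Timp2 exceeded Timp3 by 0.54 (SE 0.25), each with an exact permutation p of 0.2. Adjusted over these 3 pairs, the exact p-values were 0.7, 0.3 and 0.3. Since 3 against 3 arrays cannot give an exact p below 0.1, none of these comparisons could have passed 0.05.

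A further pair of comparisons was chosen after the values were seen, because they concern the complex in which Mmp14 and Timp2 act on Mmp2. Mmp14 minus Mmp2 was -1.94, -0.76 and -1.75 in uninjured and -0.37, -0.21 and -0.43 in contused cord. All contused arrays were above all uninjured ones, with a shift of 1.14 (SE 0.37). This shift restates the rise of Mmp14 beside the level Mmp2 signal. Its exact permutation p was 0.1, the smallest possible, but is no test because both changes were known when the pair was chosen. The shift ranged from 0.91 to 1.51 with 1 array left out. Timp2 minus Mmp14 was 2.1, 1.67 and 1.69 against 1.69, 1.68 and 1.82, a shift of -0.09 (SE 0.15; exact permutation p = 0.9), and 0.05 without uninjured array 1.

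**Figure D4:**
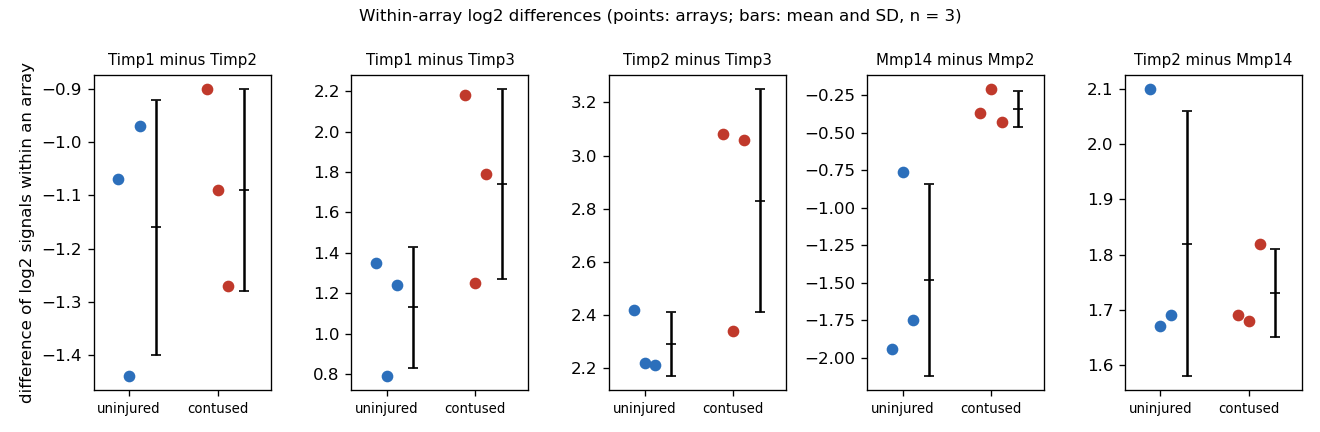
Within-array difference of log2 signals for 5 pairs of members, uninjured in blue and contused in red (points, 1 per array; bars, mean and SD of 3 arrays); each panel has its own axis. Mmp14 minus Mmp2 is the pair whose groups do not overlap, at -1.94 to -0.76 in uninjured and -0.43 to -0.21 in contused cord. This pair and Timp2 minus Mmp14 were chosen after the values were seen.

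Array by array, several members shared an order. With 3 arrays in a group few orders are possible, so shared orders arise easily. Within the contused group Mmp14, Timp2, Timp3 and the second Timp1 probe set were highest in array 2 and lowest in array 1. Within the uninjured group Timp2, Timp3 and the second Timp1 probe set were highest in array 2 and lowest in array 3, while Mmp14 was highest in array 2 and lowest in array 1. No probe set of Mmp2, Mmp7, Mmp9, Mmp10 or Mmp13 had these orders in both groups. The dimmer one of Mmp2 had that of the contused group (114, 126 and 124). The brighter Timp1 probe set did not share these orders. It was lowest in array 3 of the contused group (656, 696 and 599) and highest in array 1 of the uninjured group (335, 307 and 294). The summed signal of 17 genes that mark meninges and fibroblasts had the order of Timp2, with 18417, 21796 and 20268 in contused arrays 1 to 3 and 15026, 16630 and 10732 in uninjured arrays 1 to 3. The order is not particular to them. Sums over microglia and macrophage markers (14337, 15331 and 14704, then 5584, 6268 and 5150) and over matrix substrates had it too. Those over astrocyte markers (21765, 24810 and 23415, then 19332, 21123 and 19593) had the order of Mmp14. Sums over Schwann cell markers (14667, 16924 and 14912, then 13785, 15483 and 14891) had that of Mmp14 as well. So did the mean signal of whole arrays, trimmed by 2% at both ends and not rescaled. It was 209, 219 and 218 in contused and 217, 228 and 223 in uninjured arrays 1 to 3. The part of array brightness in these orders was not tested. Of the meningeal and fibroblast markers 16 were tested, of which 7 were higher after contusion and 1 was lower (Thy1, which neurons also carry). The count higher was 4 without contused array 1 and 2 without contused array 2. The marker Postn was at the floor on all arrays.

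Macrophage and microglia markers rose in the samples in which Mmp14, Timp1 and Timp2 did. Of 17 such genes tested 16 were higher and 0 lower, with a median log2 change of 1.29. Their summed signal was 5150 to 6268 in uninjured and 14337 to 15331 in contused arrays, and 0 of the 17 were at the floor on all arrays. With 1 array left out the count higher was 11 to 14. Astrocyte markers had 4 of 15 higher and 0 lower, with sums of 19332 to 21123 and 21765 to 24810, and 2 higher without contused array 2, contused array 3 or uninjured array 3. Endothelial and pericyte markers had 0 of 15 higher and 1 lower (0 lower without contused array 1 or 2 or any 1 uninjured array), with sums of 3260 to 3911 and 3087 to 3402. Neuron markers fell in 18 of 20 cases, and oligodendrocyte markers in 5 of 10. The part of these cell types in the changes of Mmp14, Timp1 and Timp2 was not tested.

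Genes that work with the members were read from 4 lists. Over all 3955 genes tested, each by its brightest tested probe set, 7% were higher and 9.91% lower. Of 10 tested genes in the list of other metalloproteases and inhibitors, 2 were higher and 0 lower (median log2 change 0.24). Mmp12, the elastase of macrophages, was below the floor on all uninjured arrays (42.6, 45 and 51.4). It was above the floor on all contused arrays (116, 134 and 101), at least 1.89-fold higher. It could be tested only through the contused arrays, and its uninjured values were all raised to the floor. Its limma adjusted p of 0.000985 thus takes no account of the uninjured spread. Adam17, which sheds tumour necrosis factor from the cell surface, rose from 114 ± 10.4 to 196 ± 17.9, or 1.72-fold (limma adjusted p = 0.0045). Mmp3, the nearest relative of Mmp10, was at the floor on all arrays.

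Activating proteases, their inhibitors and receptors had 9 of 22 higher and 0 lower (median 0.37). Ctsb, the lysosomal protease cathepsin B, rose from 1021 ± 104 to 2305 ± 31.1, or 2.26-fold (limma adjusted p = 0.000116). A2m, the broad plasma protease inhibitor alpha-2-macroglobulin, rose 2.49-fold, and all 6 of its probe sets passed. Among these were probe sets with every uninjured array below the floor, whose p-values take no account of the uninjured spread. Plau, the urokinase that generates plasmin, gave 65.5, 68.9 and 66.2 in uninjured and 165, 127 and 157 in contused cord, 2.23-fold higher (limma adjusted p = 0.00037). The uninjured values of Plau were just above the floor, and with the floor at the 50th percentile it did not pass (adjusted p = 0.132). Its receptor gene Plaur, named after its value was seen, gave 55.2, 52.2 and 76.8 against 102, 115 and 109. Uninjured arrays 1 and 2 lay below the floor, so its 1.64-fold rise (limma adjusted p = 0.00445) is understated.

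**Figure D5:**
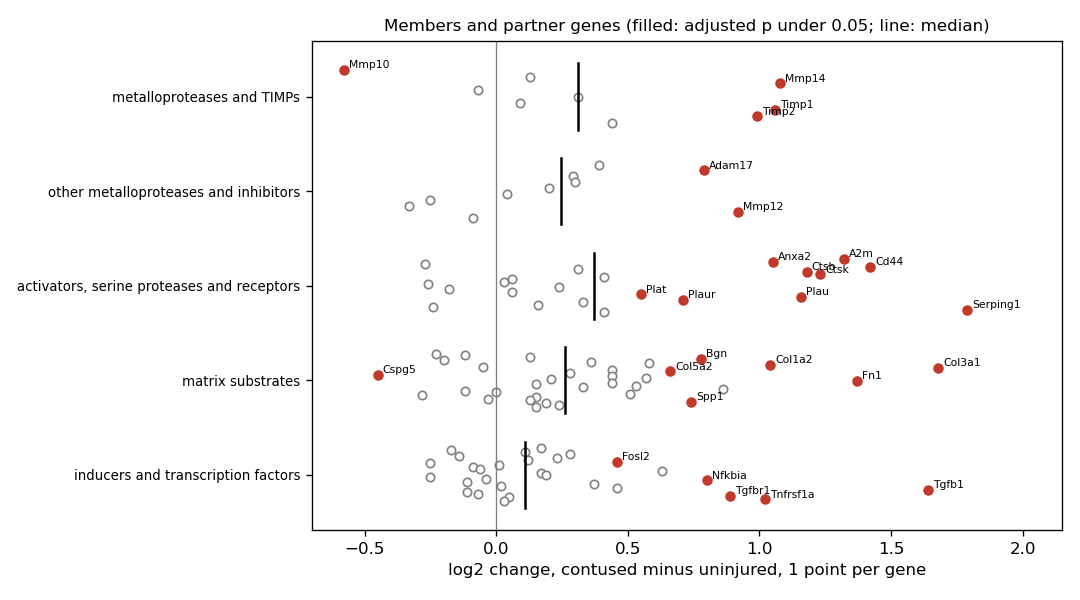
Log2 change, contused minus uninjured, of each tested gene among the members and the 4 partner lists (1 point per gene, filled and named where the adjusted p was under 0.05; vertical line, median of the list). Mmp14, Timp1 and Timp2 lie near 1, and 9 of 22 genes in the list of activators lie above 0 with filled points.

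Matrix substrates had 6 of 34 higher and 1 lower (median 0.26). Spp1, the adhesive phosphoprotein osteopontin, rose from 482 ± 26.9 to 812 ± 134 (limma adjusted p = 0.00625). Fn1 (fibronectin) rose 2.59-fold in its brightest probe set, from 394 ± 187 to 939 ± 85.1 (limma adjusted p = 0.0113). Of its 4 tested probe sets 3 passed, and the brightest did not pass with contused array 1 left out (adjusted p = 0.051) or with no filter on dim probe sets (0.137). Col5a2, a fibrillar collagen chain, rose 1.58-fold, which did not pass with contused array 2 (0.0642) or uninjured array 3 (0.0696) left out or with no filter (0.0556). The proteoglycan gene Cspg5 had a log2 change of -0.45 (limma adjusted p = 0.0433), lost with any 1 array left out (adjusted p from 0.0548 to 0.138), and 0.15 in its other probe set. The count of risen substrates was 2 without contused array 1 or 2 and up to 8 otherwise.

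Of the cytokines, receptors and transcription factors known to regulate these genes, 5 of 29 were higher and 0 lower (median 0.11). Tgfb1, which encodes a growth factor known to raise Timp1 and matrix genes, rose from 87.6 ± 16.3 to 273 ± 51.2, or 3.11-fold (limma adjusted p = 0.000338). Its receptor gene Tgfbr1 rose 1.85-fold in its brighter probe set (limma adjusted p = 0.00353). The other Tgfbr1 probe set was below the floor on all uninjured arrays and at least 2.64-fold higher in contused cord. It could be tested only through the contused arrays, so its limma adjusted p of 0.000176 takes no account of the uninjured spread. Tnfrsf1a, a tumour necrosis factor receptor gene, rose 2.03-fold (limma adjusted p = 0.00315). Without uninjured array 2 the list had 3 higher. Il6, Fosl1 and Jund were at the floor on all arrays.

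The genes whose pattern was most like that of the brighter Timp1 probe set were sought over the 6 arrays among the 3955 genes. Likeness was the root mean square difference of log2 values centred on each gene's mean, each gene by its brightest tested probe set. Nearest were Rgs1, a regulator of G protein signalling in leukocytes (0.074), Esrra, a nuclear receptor of energy metabolism (0.094), and Mmp12 (0.105). Rgs1 and Mmp12 were at the floor on all uninjured arrays, where differences between arrays cannot show. Esrra gave 330, 280 and 312 in uninjured and 593, 648 and 634 in contused cord, a pattern over groups that the brighter Timp1 probe set shared.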

How the data were processed

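The deposited table holds 1 intensity per probe set for each of 6 one-colour arrays, on a linear scale as read from the values; 21 to 32 values per array were below 0. The steps by which the authors summarised, background-corrected and scaled them are not given in the sources used here. Means per array, trimmed by 2% at both ends, differed by 8.94%, within the 10% allowed, so values were not rescaled. Log2 values correlated at 0.958 to 0.977 within and 0.91 to 0.932 between groups, and 0 pairs of arrays were identical. Of 8799 probe sets 59 controls were left out; 7006 carried 1 gene, 308 several and 1426 none, and 6985 symbols were updated through the gene identifier. The table held 0 columns of other samples.

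The floor was 61.6 (5.94 on the log2 scale). Testing required 3 arrays above it; with 1 array left out, as many as in the smaller group. limma 3.58.1 (R 4.3.3) was run with an intensity trend and no covariates, on 4 residual degrees of freedom, two-sided. The procedure was tested on simulated data. The number of arrays limits the precision. Plots and motif searches used Python 3.11.15, pandas 2.3.3 and matplotlib 3.10.9. Members, lists and tests were chosen with earlier results of these data known, including that Timp1 rose. Named genes are all members, up to 3 risen and 3 fallen genes of each partner list with the smallest p, at most 2 per marker list, and the 3 genes most like the member with the smallest p. Alternatives were other normalizations, floors, no filter, no trend, the replicate number as a block, and each array left out.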

Additional observations from a re-analysis of the deposited data

How the results depend on the processing

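The rises of Mmp14, Timp2 and both Timp1 probe sets kept direction and call in all 13 alternatives. Their log2 changes ran from 0.94 to 1.28, 0.85 to 1.11, 1.01 to 1.15 and 1.53 to 2.67. Mmp14 came close to losing its call without the filter on dim probe sets (limma adjusted p = 0.0482), where Timp2 had 0.0334. The count of lower members, 1, became 0 with arrays scaled to 1 trimmed mean and without the filter on dim probe sets, and was 0 to 1 with 1 array left out, by probe set and by gene. Higher members stayed at 4 probe sets and 3 genes. Without the filter, calls over all probe sets were 266 higher and 396 lower, against 522 and 643; with 1 array left out they ran from 271 to 482 and from 375 to 763. Also without the filter, 5 activators and 2 substrates were higher. Lower substrates became 0 with quantile normalization, the trimmed mean, no filter, the replicate block and every array left out. With 1 array left out, higher substrates ran from 2 to 8 and higher inducers from 3 to 5. Other metalloproteases had 1 higher with the floor at the 50th percentile, where Mmp12 could not be tested. The log2 change of the brighter Mmp2 probe set was 0.03 with quantile normalization and -0.23 to 0.03 with 1 array left out, that of Mmp13 -0.01 to 0.23. Shifts between pairs with 1 array left out were -0.07 to 0.17 (Timp1 minus Timp2) and -0.17 to 0.05 (Timp2 minus Mmp14). Beyond fewer arrays or other probe sets tested, the cause was not tested. Titles number replicates alike in both groups, but nothing states that the numbers pair arrays, so the main fit used no block. Same-numbered arrays deviated from their group means with correlations of 0.042, 0.222 and -0.244. Under the replicate block calls were 535 higher and 665 lower, and no member changed its call. Arrays carry no counts; Mmp9 lies near the floor, which compresses its log2 change.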
